A study of Mus musculus with 11 samples.

Results

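The RFX transcription factor family was followed in testes of wild type and Rfx2-/- mice. The 8 genes Rfx1, Rfx2, Rfx3, Rfx4, Rfx5, Rfx7, Rfxank and Rfxap were taken by their symbols in the GENCODE M21 annotation from the 23074 genes of the count table. All 8 passed the filter on low counts, as did 15745 genes in all. RNA-Seq was performed on decapsulated whole testes at postnatal day 21 (P21) from 5 wild type and 6 Rfx2-/- mice, each an independent animal. Every mouse carried a mixed background of C57BL/6, 129/Sv and FVB/N. In Rfx2-/- mice exon 7 of Rfx2 had been removed in the germ line by Cre recombinase from the ACTB-cre transgene acting on a floxed allele, so that every cell type lacked it. At P21 the first wave of spermatogenesis has filled the tubules with spermatocytes and is giving rise to round spermatids. The comparison asks whether mRNA of the other family members and of the genes that they serve differed in testes without functional RFX2.

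RFX proteins share a winged-helix DNA-binding domain that recognizes the X-box, a pair of inverted arms separated by a short spacer. RFX1, RFX2, RFX3 and RFX4 also carry dimerization domains and can bind as homodimers or heterodimers, and they control genes for the assembly of cilia and flagella. RFX5 lacks these conserved dimerization domains and forms a complex with the ankyrin repeat protein RFXANK and with RFXAP, which binds the X box of major histocompatibility complex (MHC) promoters and serves the coactivator CIITA. RFX7 is a more distant relative with the same DNA-binding domain.

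The sequence removed in the mutant is shown because the counts of Rfx2 must be read against it. Exon 7 of transcript Rfx2-201 lies on the minus strand at chr17:56787579-56787760 of GRCm38 and is 182 nt long, which leaves a remainder of 2 nt when it is divided into codons. It is coding throughout and encodes part of the DNA-binding domain. Its counterpart in Rfx1 is exon 10 of Rfx1-201 on the plus strand at chr8:84090111-84090292, and in Rfx3 it is exon 8 of Rfx3-204 on the minus strand at chr19:27830611-27830792. Both are also 182 nt long. The sequences are written 5' to 3' from the GENCODE M21 transcripts, and in Rfx1 and Rfx3 capitals mark the bases that differ from Rfx2.
Rfx2 exon 7: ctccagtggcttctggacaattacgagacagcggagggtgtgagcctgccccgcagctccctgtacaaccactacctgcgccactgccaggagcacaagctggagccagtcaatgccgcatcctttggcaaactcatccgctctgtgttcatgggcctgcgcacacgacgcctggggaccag
Rfx1 exon 10: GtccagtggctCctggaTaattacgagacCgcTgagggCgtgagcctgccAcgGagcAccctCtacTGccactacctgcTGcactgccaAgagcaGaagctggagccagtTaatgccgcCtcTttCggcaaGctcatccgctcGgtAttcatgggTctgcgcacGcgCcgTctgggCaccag
Rfx3 exon 8: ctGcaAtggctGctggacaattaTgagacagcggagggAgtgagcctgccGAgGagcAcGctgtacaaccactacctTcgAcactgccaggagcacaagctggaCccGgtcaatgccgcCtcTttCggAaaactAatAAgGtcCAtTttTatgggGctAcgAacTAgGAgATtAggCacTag
Rfx1 had the same base as Rfx2 at 154 positions (84.6%), and Rfx3 at 144 positions (79.1%). The best aligned exon of Rfx4 was 124 nt long, and 81 of 117 aligned positions (69.2%) were identical to Rfx2. The best alignments in coding exons of Rfx5, Rfx7, Rfxank and Rfxap covered between 18 and 33 nt. The exon accounts for 5.42% of the merged exon length of Rfx2 (3358 nt), and loss of its reads alone would shift a count over the whole gene by -0.08 on the log2 scale if reads were spread evenly. The counts therefore do not check the deletion.

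Total counts lay between 22232097 and 29769483 per mouse and were higher in wild type (26925157 to 29769483) than in Rfx2-/- testes (22232097 to 27116903, two-sided exact permutation test, p = 0.0130). Levels are given as counts per 1000000 (CPM) after scaling by the trimmed mean of M-values (TMM), and 3 counts correspond to between 0.0852 and 0.139 CPM. Markers of pachytene spermatocytes, spermatogonia and somatic cells of the testis had more than 3 counts in every mouse, and 6 of the 12 round spermatid markers, all of them above 3 counts in other mice, had 3 or fewer in 1 or 2 mice. Scores, which are the mean log2 CPM of a marker list, showed 2 wild type mice apart from the rest. The pachytene spermatocyte score was 6.91 in replicate 3 and 6.76 in replicate 5, against 7.61 to 7.84 in the other 9 mice. The summed level of its 12 genes ranged from 2946 to 4759 CPM in wild type and from 4349 to 4731 CPM in Rfx2-/- testes. The round spermatid list holds Spata18, which had 123 to 1010 counts in wild type and 3 to 62 in Rfx2-/- mice. Round spermatid scores ranged from -0.60 to 5.14 in wild type and from 0.83 to 4.95 in Rfx2-/- testes, with no difference between genotypes beyond their spread (difference 0.73, two-sided exact permutation test, p = 0.532). Of the 7 marker lists, none differed between genotypes after Benjamini-Hochberg adjustment (lowest adjusted p = 0.0808, exact permutation test). In whole testis, fewer cells of a type and less RNA per cell cannot be told apart.

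Rfx2 mRNA was the most abundant of the family per length in both genotypes, and its level did not differ between them beyond the spread of the wild type mice. Across the family, no member was called at an adjusted p of at most 0.01, in the quasi-likelihood test of edgeR with p-values adjusted by Benjamini-Hochberg, the test used throughout. Of all 15745 genes 2.67% were called (1.94% lower and 0.73% higher, and 1.25% with more than a 2-fold change), so 0 of 8 is near this background. At an unadjusted p of at most 0.05, 4 of 8 members passed against a background of 41.8%. DESeq2 called Rfx5 alone (background 13.4%) and limma voom none (6.66%). Fitted changes ranged from -0.24 to 0.86 on the log2 scale with a median of 0.12, against a median of -0.05 over all genes.

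**Figure D1:**
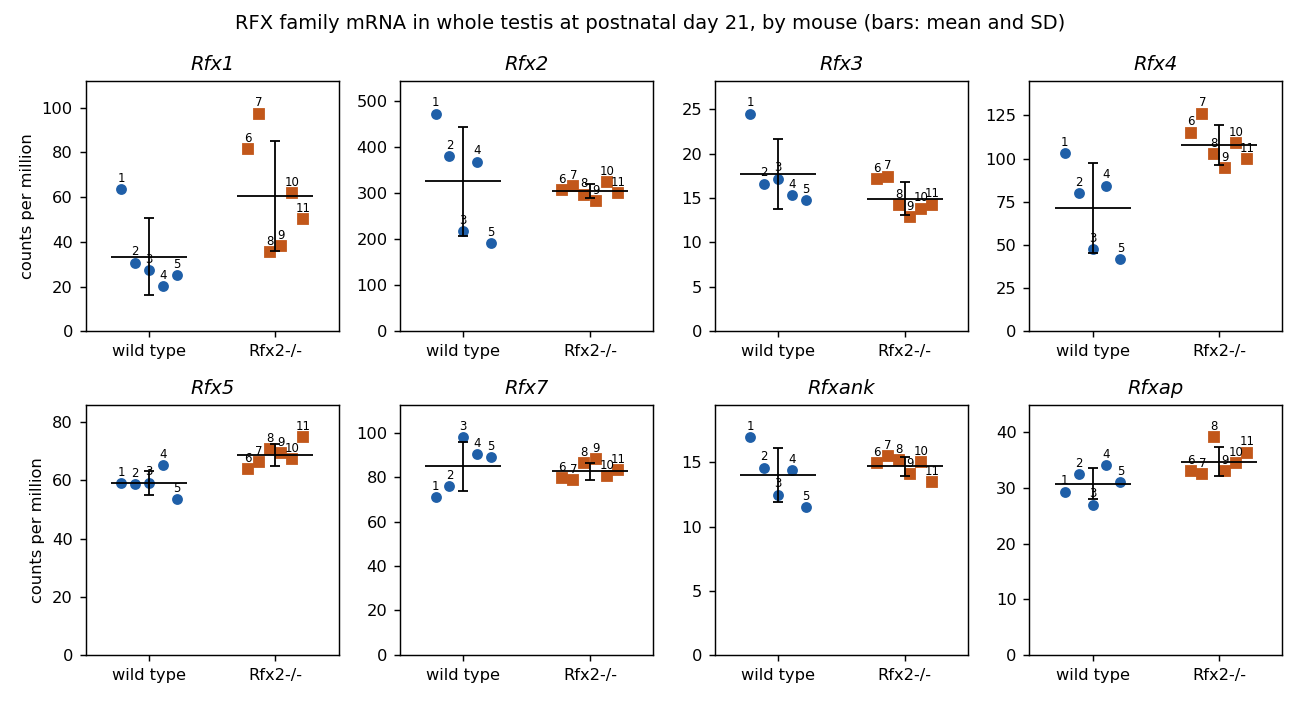
Level of each RFX family member in CPM (y axis, from 0) in every mouse, with replicate numbers beside the points. Circles are the 5 wild type mice, squares the 6 Rfx2-/- mice, and bars the mean and SD. For Rfx2 the wild type mice span 191 to 472 CPM and the Rfx2-/- mice 282 to 324 CPM.

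Rfx2, which drives the postmeiotic gene program that builds the sperm flagellum, was measured at 472, 380, 218, 368 and 191 CPM in wild type replicates 1 to 5. In Rfx2-/- testes the lowest value was 282, the median 303 and the highest 324 CPM. The Rfx2-/- mice thus lay inside the wild type range, above replicates 3 and 5 and below the other 3. The means were 326 ± 118 CPM (SD, n = 5) against 304 ± 14.6 CPM (SD, n = 6), a log2 fold change of -0.10 with a standard error of 0.21 (edgeR, adjusted p = 0.714). The coefficient of variation was 36.3% among wild type and 4.81% among Rfx2-/- mice. This value depended on the 2 wild type mice with low pachytene scores. Without them the log2 fold change was -0.41 with a standard error of 0.08 (edgeR, adjusted p = 0.0122), and with the pachytene score as a covariate it was -0.53 (edgeR, adjusted p = 0.01004, just above the threshold). Without wild type replicate 1 it was 0.07 (edgeR, adjusted p = 0.761).

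Rfx1, a broadly expressed member that acts as activator or repressor depending on the promoter, was measured at 63.5, 30.7, 27.4, 20.0 and 25.1 CPM in the wild type mice. In Rfx2-/- testes the lowest, median and highest values were 35.3, 56.0 and 97.3 CPM. All 6 Rfx2-/- mice lay above wild type replicates 2 to 5, but only 2 of them lay above replicate 1, so the genotypes overlapped. The log2 fold change was 0.86 with a standard error of 0.35 (edgeR, adjusted p = 0.0907). Without wild type replicate 1 it was 1.23 (edgeR, adjusted p = 0.0183). With the round spermatid score as a covariate it was 0.66 with a standard error of 0.15, which passed the threshold (edgeR, adjusted p = 0.00797). That fit called several times as many of all genes as the main fit. Its score holds Spata18, which was lower in Rfx2-/- mice, and the fit was not repeated without this gene. Without wild type replicates 3 and 5 the log2 fold change of Rfx1 was 0.68 (edgeR, adjusted p = 0.362).

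Rfx4, best known for its role in brain patterning and ciliogenesis, was measured at 103, 80.0, 47.5, 84.3 and 41.8 CPM in wild type. The Rfx2-/- values ran from 94.5 through a median of 106 to 126 CPM. Here too only wild type replicate 1 lay within the Rfx2-/- range, and the other 4 lay below it. The log2 fold change was 0.59 with a standard error of 0.21 (edgeR, adjusted p = 0.0715). It was 0.28 without wild type replicates 3 and 5 (edgeR, adjusted p = 0.131) and 0.15 with the pachytene score as a covariate (edgeR, adjusted p = 0.509).

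Rfx3, which serves motile and nodal cilia, was the least abundant member per kb of exon. Wild type mice gave 24.5, 16.6, 17.2, 15.3 and 14.7 CPM, and Rfx2-/- mice 12.9 at the lowest, 14.2 at the median and 17.4 at the highest. Replicate 1 again stood highest, and 4 of 6 Rfx2-/- mice lay below every wild type mouse. The log2 fold change was -0.24 with a standard error of 0.14 (edgeR, adjusted p = 0.206). It was -0.10 without wild type replicate 1 (edgeR, adjusted p = 0.461) and -0.40 with total counts as library sizes (edgeR, adjusted p = 0.0437).

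Among wild type mice the coefficient of variation was 7.02% for Rfx5, 8.92% for Rfxap and 14.96% for Rfxank, the members of the MHC complex. For Rfx7, outside this complex, it was 12.99%. It was 36.3% for Rfx2 and 36.4% for Rfx4, and without replicate 1 still 34.1 and 34.4%. For Rfx1 (51.8%) and Rfx3 (22.3%) it was set largely by replicate 1, without which it was 17.4 and 7.17%. Without that mouse it was 8.10% for Rfx5, 9.73% for Rfxap, 11.2% for Rfxank and 10.2% for Rfx7, all above Rfx3. Differences in variation were not tested. Rfx5, the DNA-binding subunit, was measured at 59.0, 58.7, 59.2, 65.1 and 53.4 CPM in wild type. The Rfx2-/- mice had 64.0 at the lowest, 68.3 at the median and 74.8 CPM at the highest. In 5 of 6 Rfx2-/- mice the level was above every wild type mouse. The log2 fold change was 0.22 with a standard error of 0.06 (edgeR, adjusted p = 0.0381), which passed a threshold of 0.05 but not the 0.01 used here. In this fit it was the only member past 0.05, where the background was 14.9% of genes in either direction and 6.15% higher. Past 0.05 were also Rfx1, Rfx4 and Rfxap with DESeq2 (adjusted p from 0.0235 to 0.0448), and Rfx1 and Rfx4 with limma voom (adjusted p = 0.0440 and 0.0290). The shares of all genes past 0.05 in those 2 tests were not computed. At 0.01 they were already 13.4% and 6.66%, so these members are not read as set apart from other genes. With total counts as library sizes the change of Rfx5 was 0.06 (edgeR, adjusted p = 0.559), while the median over all genes moved from -0.05 to -0.22. Of the 11 fits that each left out 1 mouse, 2 kept an adjusted p under 0.05 (range 0.0202 to 0.0727).

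Rfxap, the RFX-associated subunit, was measured at 29.3, 32.5, 27.0, 34.0 and 31.0 CPM in wild type, and at 32.5, 33.7 and 39.1 CPM as the lowest, median and highest of the Rfx2-/- mice. The groups overlapped, with 3 of 6 Rfx2-/- mice above every wild type mouse (log2 fold change 0.17, standard error 0.08, edgeR adjusted p = 0.113). Rfxank, the ankyrin repeat subunit, gave 16.9, 14.6, 12.5, 14.4 and 11.5 CPM in wild type and 13.5, 14.98 and 15.5 CPM as the lowest, median and highest of the Rfx2-/- mice. All of the latter lay inside the wild type range (log2 fold change 0.07, standard error 0.10, edgeR adjusted p = 0.602). The direction of the Rfxank value turned with total counts as library sizes (-0.08) and without wild type replicates 3 and 5 (-0.05).

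Rfx7, a member without the dimerization domains, was measured at 71.0, 76.1, 97.9, 90.2 and 89.0 CPM in wild type. Rfx2-/- mice gave 78.6 at the lowest, 81.8 at the median and 87.9 CPM at the highest. They lay inside the wild type range, above replicates 1 and 2 and below the other 3, which is the reverse of the order seen for Rfx2 in replicates 1, 2, 3 and 5. The log2 fold change was -0.04 with a standard error of 0.08 (edgeR, adjusted p = 0.731), and 0.03 without wild type replicate 3.

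**Figure D2:**
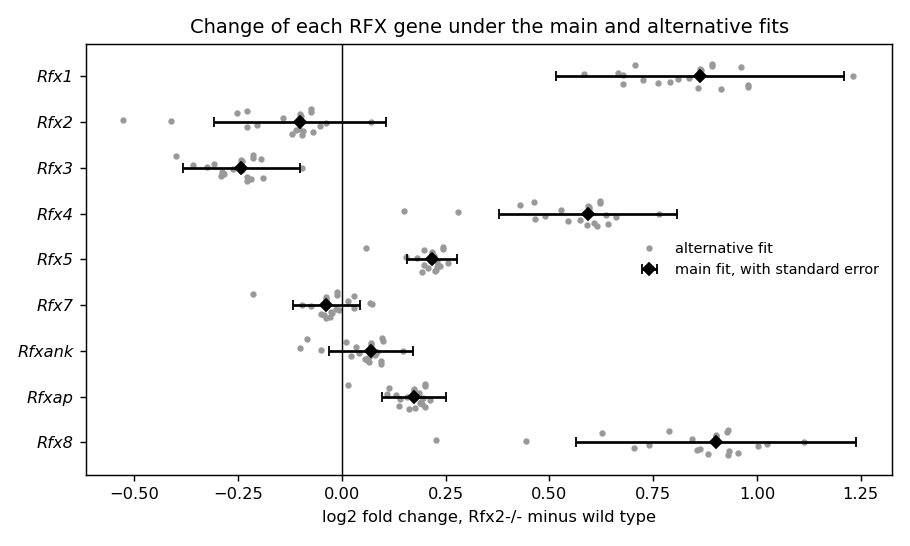
Log2 fold change (x axis, Rfx2-/- minus wild type) of the 8 members and of Rfx8 (rows). Diamonds with bars are the main edgeR fit and its standard error, and grey points the 21 alternative fits. Rfx1 and Rfx4 stayed above 0 in all fits shown, and Rfx2, Rfx7 and Rfxank crossed 0 in at least 1.

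The remaining paralogs were looked at for completeness. Rfx8, a little studied relative of the dimerizing members, was measured at 108, 92.6, 34.3, 88.7 and 25.8 CPM in wild type and at 112, 128 and 151 CPM as the lowest, median and highest of the Rfx2-/- mice. The genotypes did not overlap, which was also the case for 6.5% of all genes in this direction. The log2 fold change was 0.90 with a standard error of 0.34 and did not pass (edgeR, adjusted p = 0.0776). It was 0.44 without wild type replicates 3 and 5 (edgeR, adjusted p = 0.0404) and 0.23 with the pachytene score as a covariate (edgeR, adjusted p = 0.392). Rfx6, a factor of endocrine pancreas, had between 0 and 16 counts and was not tested.

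Levels of the 8 members were compared per kb of merged exon. Rfx8 is not ranked among them. Its mean of 34.8 CPM per kb in wild type and 65.0 in Rfx2-/- testes lay between those of Rfx2 and Rfx4 in both genotypes. In wild type testes Rfx2 stood at 97.0 ± 35.2 CPM per kb (SD, n = 5), above Rfx4 (17.0 ± 6.21), Rfxap (14.2 ± 1.27), Rfx5 (11.6 ± 0.81), Rfx7 (9.81 ± 1.27), Rfx1 (7.93 ± 4.11), Rfxank (3.85 ± 0.58) and Rfx3 (1.87 ± 0.42). Rfx2 was above Rfx4 in all 5 mice with ranges apart, and the ranges of Rfx1 and Rfxank and of Rfxank and Rfx3 were also apart. Other neighbors in this order overlapped, Rfx4 being above Rfxap in 3 of 5 mice. In Rfx2-/- testes Rfx2 (90.5 CPM per kb) was again first and Rfx4 (25.7) second, now with ranges apart from Rfxap (16.1). Rfx1 (14.4) came next, followed by Rfx5 (13.5), and neither Rfxap and Rfx1 nor Rfx1 and Rfx5 were apart. Rfx7 (9.56), Rfxank (4.04) and Rfx3 (1.58) closed the order. Dividing by coding length put Rfxap (44.4) before Rfx4 (31.0) in wild type, and Rfx2 remained first at 151 CPM per kb. It also put Rfxank (17.3) before Rfx1 (11.5), so the order of these 2 depends on the length used.

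**Figure D3:**
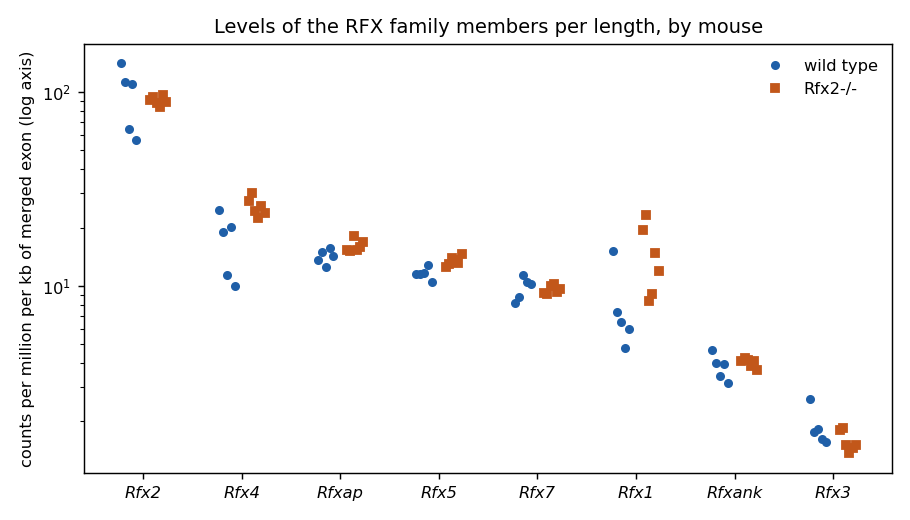
CPM per kb of merged exon (y axis, log scale) for each member (x axis, in the order of wild type means). Circles are single wild type mice and squares single Rfx2-/- mice. Rfx8 is not shown. Rfx2 lies above all other members in every mouse, at 97.0 CPM per kb on average in wild type.

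RFX1, RFX2, RFX3 and RFX4 can pair with each other, so the make-up of their mRNA pool within a mouse was compared. In Rfx2-/- mice the Rfx2 part of this pool is mRNA of the deleted allele. The study did not detect RFX2 protein in such testes by Western blotting or staining. The shares therefore describe mRNA and not the proteins available for pairing. RFX6 and RFX8 carry related domains, and Rfx8 is added to the sum as an alternative. Such shares do not depend on how libraries are scaled. Of the summed CPM per kb of these 4 genes, Rfx2 made up 76.8, 80.1, 76.7, 80.5 and 76.5% in the wild type mice. In Rfx2-/- mice it made up 63.0% at the lowest, 70.1% at the median and 72.0% at the highest. All 6 Rfx2-/- mice were below every wild type mouse, including replicates 3 and 5. The means were 78.1 ± 1.999% (SD, n = 5) and 68.7 ± 3.74% (SD, n = 6), a difference of -9.42 percentage points. A two-sided exact permutation test gave p = 0.00433, the smallest it can give in this design, and 0.00866 after adjustment over the 4 genes. The difference was -8.24 points when exon 7 was taken out of the Rfx2 length in the mutant and -10.4 without wild type replicates 3 and 5. With Rfx8, at 34.8 CPM per kb in wild type and 65.0 in Rfx2-/- testes, added to the sum, the share of Rfx2 was 61.9 ± 2.47% (SD, n = 5) and 46.1 ± 3.12% (SD, n = 6), a difference of -15.8 points.

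The share of Rfx4 moved the other way. It lay between 13.4 and 14.8% in wild type and between 18.7 and 20.2% in Rfx2-/- mice, without overlap (13.7 ± 0.60% against 19.4 ± 0.61%, exact permutation test, p = 0.00433, adjusted 0.00866). Rfx1 made up 6.53 ± 2.10% and 10.7 ± 3.43% (exact permutation test, p = 0.0433, adjusted 0.0476), and Rfx3 1.62 ± 0.47% and 1.20 ± 0.08% (exact permutation test, p = 0.0476, adjusted 0.0476). For both of these the genotypes overlapped. The 4 shares add up to the whole in each mouse and so are not independent.

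Expressed as a percentage of Rfx2 per kb, Rfx4 varied little within a genotype. The wild type values were 17.6, 16.8, 17.5, 18.4 and 17.5%, although the CPM of both genes differed more than 2-fold among these mice. The Rfx2-/- values were 26.6% at the lowest, 27.3% at the median and 32.0% at the highest, all above the wild type mice. Rfx8 lay between 22.6 and 40.7% of Rfx2 in wild type and between 65.5 and 80.7% in Rfx2-/- mice, again without overlap. A ratio to Rfx2 that was higher in every Rfx2-/- mouse than in every wild type mouse was found for 10.1% of the 15744 other genes, so this behavior is not particular to RFX genes.

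**Figure D4:**
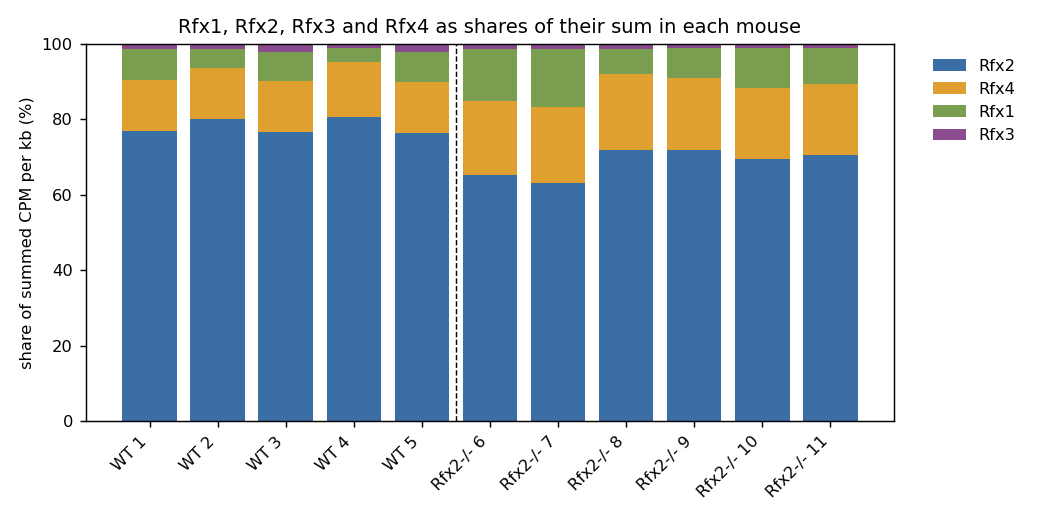
Rfx1, Rfx2, Rfx3 and Rfx4 as percentages of their summed CPM per kb (y axis) in each mouse (x axis), wild type left and Rfx2-/- right of the dashed line. The Rfx2 part fills 76.5 to 80.5% of the wild type bars and 63.0 to 72.0% of the Rfx2-/- bars.

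The mice differed widely in round spermatid score, and the members divided according to it. Over 11 mice Rfx7 decreased with the score (Pearson r = -0.87, permutation p = 0.00035, adjusted 0.0028 over the 8 members; Spearman rho = -0.95, permutation p = 4e-05). Rfx1 (r = 0.82), Rfxank (0.81), Rfx2 (0.72), Rfx4 (0.71) and Rfx3 (0.67) increased with it, with adjusted permutation p between 0.00613 and 0.0248. For Rfx3 the rank correlation did not pass (rho = 0.46, permutation p = 0.154). Rfx5 (r = 0.09) and Rfxap (r = -0.07) showed no relation that could be detected over 11 mice on this scale. The division depended on the scaling. With total counts as library sizes Rfx5 (r = -0.70, permutation, adjusted p = 0.0331) and Rfxap (r = -0.80, permutation, adjusted p = 0.0130) decreased with the score, Rfx2 (0.57), Rfx3 (0.30) and Rfxank (0.37) no longer passed (adjusted permutation p from 0.0891 to 0.363), and Rfx1, Rfx4 and Rfx7 still did. Of all genes 42.1% were at least as strongly correlated with this score as Rfx3, and 4.43% were at or below the value of Rfx7.

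When the 2 mice farthest from the median score, wild type replicate 1 and Rfx2-/- replicate 7, were left out, Rfx7 kept r = -0.84 (permutation, adjusted p = 0.0402). For Rfx1 (0.75), Rfx4 (0.72), Rfxank (0.71), Rfx2 (0.68) and Rfx3 (0.27) the relation no longer passed adjustment (adjusted permutation p from 0.0582 to 0.475). Of these, r changed little for Rfx1, Rfx2, Rfx4 and Rfxank, and the relation of Rfx3 rests on those mice. Within the 6 Rfx2-/- mice alone r was 0.98 for Rfx1 (exact permutation p = 0.00278), 0.96 for Rfx4 (exact permutation p = 0.00417), 0.88 for Rfx3 (exact permutation p = 0.0278) and -0.93 for Rfx7 (exact permutation p = 0.00694), before adjustment. Rfx2 gave 0.70 (exact permutation p = 0.111). With Spata18 left out of the score, the members that passed were Rfx1, Rfx2, Rfx4, Rfx7 and Rfxank, and Rfx3 no longer did (r = 0.59, permutation, adjusted p = 0.0611). With the pachytene score in its place, r over 11 mice was 0.95 for Rfx4, 0.80 for Rfxank and 0.73 for Rfx2 (adjusted permutation p from 0.00512 to 0.0336). Without wild type replicates 3 and 5 these values were 0.57, -0.12 and -0.52, and none passed adjustment. Rfx4 and Rfx2 were thus correlated with both scores. All mice were of 1 age, and the source of their unequal scores was not tested.

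**Figure D5:**
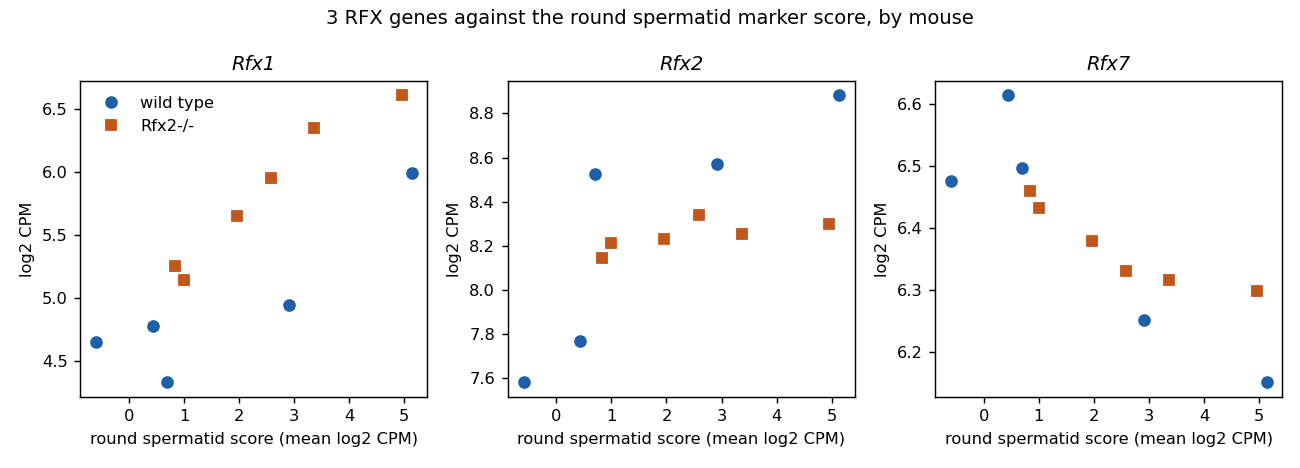
Log2 CPM of Rfx1, Rfx2 and Rfx7 (y axes) against the round spermatid score, the mean log2 CPM of 12 marker genes (x axes). Circles are wild type and squares Rfx2-/- mice. Rfx1 and Rfx2 rise with the score (r = 0.82 and 0.72 over 11 mice), and Rfx7 falls (r = -0.87), but with total counts as library sizes Rfx2 no longer passed adjustment (r = 0.57).

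Among 10273 genes with a mean of at least 10 CPM, those whose log2 CPM followed Rfx2 most closely over the 11 mice were Coq4 (r = 0.985), which is needed for coenzyme Q synthesis, Fank1 (0.984), a testis nuclear protein with ankyrin repeats, and Pfkfb4 (0.982), the testis isoform of a regulator of glycolysis. With both genotypes pooled, Rfxank was the most similar to Rfx2 of the other members (r = 0.88, rank 253). It was followed by Rfx4 (0.69), Rfx3 (0.50), Rfx1 (0.33), Rfx5 (0.21) and Rfxap (0.18). The ratio of Rfx4 to Rfx2 differed between genotypes (mean 17.6% in wild type, 28.4% in Rfx2-/- mice), and such a shift lowers a pooled r. Correlations of members with Rfx2 inside a genotype were not computed, so this order need not hold there. Rfx7 ran opposite to Rfx2 (r = -0.75). These correlations come from libraries that share a scaling and are given as a description.

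X-box sequences were looked for in RefSeq promoter windows of GRCm38.p6, from 250 bases before to 50 bases after each start. The motif was GTTNCC and GGNAAC with 2 bases between them. It reads the same on both strands, and mismatches were counted over its 10 fixed letters. Windows were present for 7 of the 8 members, not for Rfxap, and Rfx4 had 2. No member window held the motif without mismatch, as 0.451% of all 32851 windows did. The best match in Rfx1, Rfx2, Rfx3 and Rfx5 had 2 mismatches, and 13.9% of windows did as well or better. They are shown with flanking bases, with capitals for the 14 bases of the match.
Rfx1, plus strand, chr8:84066829-84066858: tagcaacaGTTGCCCCGGTGAGggaaacgg
Rfx2, minus strand, chr17:56830959-56830982: tagagactGTAGCCGTGGAGACtg
Rfx3, minus strand, chr19:28011117-28011143: tagcaaccGTTGCCTTGTGAATcaagc
Rfx5, plus strand, chr3:94954000-94954029: catattctGTTACCAGGCAGACtttcactg
In Rfx5 the match began 100 bases before the start, and in Rfx1, Rfx2 and Rfx3 it began 1, 34 and 31 bases after it. The best matches in Rfx7 and Rfx4 had 3 mismatches (63.4% of windows) and that in Rfxank 4 (99.4%). Rfx1, Rfx2 and Rfx3 stand on the list of RFX2 ChIP-Seq targets that accompanies the study, used here only as an annotation. The other members do not, including Rfx5 with as close a match. The share of all genes on that list was not computed, and a relation between match and list was not tested.

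Genes that the RFX factors serve, or act beside, were counted in lists. Among genes of MHC class II and class I, 11 of 15 were tested, none was called, and their median log2 fold change was 0.03 against -0.05 over all genes. The most abundant, the class I heavy chain H2-K1, was at 213 ± 18.1 CPM (SD) in the 5 wild type mice, compared with 197 ± 22.9 CPM (SD) in the 6 Rfx2-/- mice (log2 fold change -0.11, edgeR adjusted p = 0.358). Ciita, the coactivator that docks on the RFX5 complex, had between 1 and 16 counts per mouse (log2 fold change -0.31, edgeR adjusted p = 0.644).

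In genes of intraflagellar transport and the Bardet-Biedl syndrome, 2 of 38 rose, none fell, and the median was 0.15. Over all genes 0.73% were called higher and 1.94% lower. Both that rose encode partners of the tubulin-binding module of the transport train, Ift74 (from 176 ± 44.0 to 377 ± 36.6 CPM, SD, log2 fold change 1.10, edgeR adjusted p = 0.00182) and Ift81 (from 90.0 ± 20.3 to 182 ± 25.2 CPM, SD, log2 fold change 1.01, edgeR adjusted p = 0.00258). The most abundant gene that was not called was Ift140, of the retrograde train, with a log2 fold change of 0.56 (edgeR, adjusted p = 0.0660). Of 14 genes of the transition zone, the gate at the base of the cilium, Tctn1 (1.04, edgeR adjusted p = 0.000933) and Rpgrip1l (0.66, edgeR adjusted p = 0.000143) rose and Tmem231 (-0.62, edgeR adjusted p = 0.00767) fell. The median of this list was 0.12, and Cep290, its most abundant gene, was not called (0.17, edgeR adjusted p = 0.392). The study already names Ift74, Ift81 and Tctn1 as higher at P21, on samples that include these, and Tmem231 as lower in older mice. Its lists hold changes of more than 2-fold, whereas genes were called here at any fold. Rpgrip1l and Tmem231 changed by less than 2-fold here, so their calls are not set against those lists.

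Of 9 genes of primary ciliary dyskinesia, 6 fell and none rose, with a median of -3.99. The 9 are those that the study names as lower in Rfx2-/- testes, out of a larger set of such genes. Dnaic2, Ccdc40, Armc4, Drc1, Rsph9 and Cfap53 were named as lower on samples that include these. Ccdc65, Zmynd10 and Ccno were named as lower in older mice only, with the results at P21 known. The direction of the 9 genes is therefore not independent evidence. In the fit used here Zmynd10 was among those that fell, and Armc4, Ccdc65 and Ccno were not called. Armc4 had a log2 fold change of -3.99 (edgeR, adjusted p = 0.0147). The largest falls were those of the dynein intermediate chain gene Dnaic2 (from 57.4 ± 38.4 to 0.945 ± 0.30 CPM, SD, log2 fold change -5.91, edgeR adjusted p = 0.000148) and of Drc1, of the nexin-dynein regulatory complex (from 81.1 ± 41.4 to 2.55 ± 0.35 CPM, SD, log2 fold change -4.99, edgeR adjusted p = 2.49e-05). Ccdc65, the most abundant gene without a call, had a log2 fold change of -1.75 (edgeR, adjusted p = 0.0125).

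Other transcription factors of cilia and spermatogenesis gave no call among 11 tested of 15, Rfx8 included, with a median of 0.49. The most abundant was Tcfl5, a helix-loop-helix factor of spermatocytes (log2 fold change 0.45, edgeR adjusted p = 0.151). None of 4 testis genes with an X-box promoter was called, and their median was 0.48. The most abundant, the central pair gene Spag6l, had a log2 fold change of 0.71 (edgeR, adjusted p = 0.0835).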

How the data were processed

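Total RNA of decapsulated testes was made into TruSeq libraries. According to the authors, reads on exons of each gene were counted with featureCounts 1.4.6 after mapping to GRCm38, and the submitters' processing notes also name STAR 2.4 and CASAVA 1.8.2. The study's methods name different aligners and read lengths in different paragraphs. The deposited values are whole-number counts that had not been normalized. They cover 23074 genes, of which 22293 matched GENCODE M21. All sample columns were used.

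Counts were analyzed with edgeR 4.0.16 in R 4.3.3. Genes were kept by filterByExpr, libraries scaled by TMM, and genotypes compared with glmQLFit and glmQLFTest without covariates. A gene was called at an adjusted p (Benjamini-Hochberg) no higher than 0.01, over all 15745 genes tested. The fit was tested on simulated data. Standard errors were derived from the F statistic. The p-values measure spread between single animals.

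Lengths were merged GENCODE M21 exons, which need not be the exons the authors counted. Scores and correlations used log2 CPM with a prior count of 2, shares CPM per kb. Correlations had 100000 permutations. The detection floor was set at 3 counts per library and covers counting error only. Alternatives were size factors of DESeq2 within edgeR, total counts, DESeq2 1.42.0 with its Wald test, voom of limma 3.58.1 with sample weights, a robust prior, other filters, the round spermatid score as a covariate, and each mouse left out in turn. Alternatives chosen after seeing the data were the pachytene score as a covariate, leaving out wild type replicates 3 and 5, marker scores without each mouse, the round spermatid score without Spata18, and the further sums and lengths for the Rfx2 share.

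All 8 members were named. From each list the called genes with the 2 lowest and 2 highest fold changes and the most abundant gene without a call were named, and for Rfx2 the 3 genes most correlated with it. The members and all lists were chosen with earlier results of these data known. Sequences were read from GENCODE M21 transcripts and RefSeq promoter windows, and aligned with a match score of 1. Figures were made in Python 3.11.15 with matplotlib 3.10.9, and exact tests with SciPy 1.17.1.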

Additional observations from a re-analysis of the deposited data

Results flagged for a closer look

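Wild type replicate 1 stood apart from the other wild type mice for 2 of the RFX genes, its gap to the nearest mouse being large against the range of the group by Dixon's criterion. Its Rfx1 level was 63.5 CPM, against 20.0 to 30.7 CPM in the other 4. Its Rfx3 level was 24.5 CPM, against 14.7 to 17.2 CPM. The same mouse had the highest round spermatid score of all 11, at 5.14. Of 32 groups of values examined 2 were picked out in this way, and chance picks out about 1 in 20.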

How the results depend on the processing

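The 8 members were refitted under 21 alternatives. Rfx1, Rfx3, Rfx4, Rfx5 and Rfxap kept their direction in all of them. The call changed for Rfx1 with the round spermatid score as a covariate (0.66, edgeR adjusted p = 0.00797) and for Rfx5 with the Wald test of DESeq2 (0.24, adjusted p = 0.00155), so that 1 member was called under each, and 1 at an adjusted p of 0.05. Each of these 3 settings also called several times as many of all genes as the main fit, as given below, so 1 of 8 members is not set apart by them. Rfx7 turned to 0.030 with voom, 0.015 with the round spermatid score, 0.068 with the pachytene score and 0.073 without wild type replicates 3 and 5. Rfxank turned to -0.083 with total counts, -0.10 with the pachytene score and -0.051 without those 2 mice. With 1 mouse left out, Rfx2 ranged from -0.23 to 0.071 (turned without wild type replicate 1) and Rfx7 from -0.095 to 0.030 (turned without wild type replicate 3). The cause of these changes was not tested.

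Over all genes, 305 fell and 115 rose. The numbers were 911 and 1146 with DESeq2, 682 and 367 with voom, 1064 and 895 with the round spermatid score, 1382 and 968 at an adjusted p of 0.05, and 459 fell with the pachytene score. With 1 mouse left out they ranged from 184 (without Rfx2-/- replicate 10) to 393 and from 45 (without Rfx2-/- replicate 10) to 192, both highest without wild type replicate 1. Calls among intraflagellar transport and Bardet-Biedl genes went from 2 to 5 with total counts, 6 with DESeq2, 8 with voom, 5 and 9 with the round spermatid and pachytene scores, 10 without wild type replicates 3 and 5 and 6 at 0.05. For transition zone genes they went from 3 to 5 with DESeq2, 5 with the round spermatid score and 6 at 0.05. Among the other transcription factors 2 were called with DESeq2 and 1 each with the round spermatid score, the pachytene score and without the 2 mice, and the same 3 settings called 1 gene with an X-box promoter.

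The Rfx2 share differed between genotypes past 0.05 under every alternative tried. Leydig cell scores passed adjustment only without wild type replicate 4, as did macrophage and pachytene scores. With 1 mouse left out their differences ranged from -0.73 to -0.41, from -0.48 to -0.31 and from 0.29 to 0.55.

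Correlations with the round spermatid score lost adjustment without the 2 farthest mice for Rfx1 (0.75), Rfx2 (0.68), Rfx3 (0.27), Rfx4 (0.72) and Rfxank (0.71), and that of Rfxap turned to 0.28. Without Spata18 in the score, Rfx3 no longer passed (0.59). With total counts they were 0.57 for Rfx2, 0.30 for Rfx3, 0.37 for Rfxank, -0.70 for Rfx5 (turned, permutation, adjusted p = 0.0331) and -0.80 for Rfxap (passed, permutation, adjusted p = 0.0130). With the pachytene score in its place, wild type replicates 3 and 5 stand apart. There r was 0.51 for Rfx1, 0.73 for Rfx2, -0.058 for Rfx3, 0.95 for Rfx4 and 0.73 for Rfx5. It was -0.51 for Rfx7, 0.80 for Rfxank and 0.65 for Rfxap. Wild type levels divided by coding length were 11.5 for Rfx1, 151 for Rfx2, 7.87 for Rfx3 and 31.0 CPM per kb for Rfx4. They were 29.2 for Rfx5, 19.1 for Rfx7, 17.3 for Rfxank and 44.4 CPM per kb for Rfxap. Depth limited Rfx6 and Ciita, with at most 16 counts. No paired analysis was possible because the labels used here do not give the litter of a mouse, and the genotypes share no replicate number.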
